A study of Mus musculus with 3 samples.

Results

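The cells described here are mesenchymal tumour-like cells of mouse pancreatic tumours that carry transcripts of Crabp2, Cst6 or Esm1. They were picked by unique molecular identifier (UMI) counts, each UMI standing for one captured transcript. A cell had 0 Epcam UMIs, at least 1 UMI of Cdkn2a and of Hmga2, at most 1 UMI of Dcn, 0 UMIs of Pax6, Lingo2 and Slc14a1 together, and at least 2 UMIs of Cst6, Esm1 and Crabp2 together. The rule found 183 cells among 19576 deposited barcodes, of which 19302 passed the filters of at least 500 detected genes and at most 20% mitochondrial UMIs. They are called Cst6/Crabp2 cells below. The rule used the counts of these 10 genes, so their levels are given as a description only and support nothing.

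The study sequenced cells of 3 KPf/fC pancreatic tumours with droplet-based 3′ RNA sequencing, after sorting away cells positive for CD45 (blood cells), CD31 (endothelial cells) or PDGFRa (many fibroblasts). The labels give the strain as KPf/fC and name no Cre driver and no age. All 3 tumours are of this strain and there is no control group. The Cst6/Crabp2 cells were set against Pax6/Lingo2 cells, which pass the same gate on Epcam, Cdkn2a, Hmga2 and Dcn but hold at least 1 UMI of Pax6, Lingo2 or Slc14a1, and against epithelial cells (at least 2 Epcam UMIs, at most 1 Dcn UMI) and fibroblast cells (0 Epcam UMIs, at least 5 Dcn UMIs) of the same tumour.

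Crabp2 is a small cytosolic protein that carries retinoic acid to its nuclear receptors. Cst6 (cystatin E/M) is a secreted inhibitor of lysosomal cysteine proteases, and Esm1 (endocan) is a secreted proteoglycan best known from endothelial cells. Hmga2 is a chromatin protein of embryonic tissues that many tumours express again, and Cdkn2a encodes the tumour suppressors p16Ink4a and p19Arf. Pancreatic tumour cells that lose epithelial adhesion genes such as Epcam and express Vim and collagen genes are known as quasi-mesenchymal or mesenchymal tumour cells, and they share many transcripts with fibroblasts.

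Nearly all of these cells came from 1 tumour. Tumour 1 held 3 of them among 5802 kept cells, a share of 0.0517% (exact binomial 95% interval 0.0107% to 0.151%). Tumour 2 held 179 among 6072 kept cells, or 2.95% (2.54% to 3.40%), and tumour 3 held 1 among 7428, or 0.0135% (0.000341% to 0.0750%). The wider gate on Epcam, Cdkn2a, Hmga2 and Dcn was met by 4.24%, 21.7% and 1.87% of kept cells in tumours 1, 2 and 3. Tumour 2 was therefore the only tumour with enough cells to sum, and no difference below has a test across tumours. Values are UMIs summed over the cells of a population in tumour 2 and scaled to 1000000 UMIs of that population (CPM), and all intervals cover counting error only, not the spread between tumours.

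The 179 cells together held 2662810 UMIs. A cell had a median of 13608 UMIs and 3194 genes, close to the 13840 UMIs of the 897 Pax6/Lingo2 cells and above the 8672 of the 2065 epithelial cells and the 7712.5 of the 1034 fibroblast cells. The other 243 cells of the gate, which had under 2 UMIs of the naming genes and none of Pax6, Lingo2 and Slc14a1, were shallower, with a median of 8046 UMIs; the part of depth in meeting the minimum of 2 UMIs was not tested beyond the thinning given in the closing section. Scrublet, which scores cells for likeness to simulated doublets, marked 113 cells of tumour 2, and 0 of the Cst6/Crabp2 cells. Pairs of libraries shared 50, 65 and 57 barcode sequences (tumours 1 and 2, 1 and 3, and 2 and 3), and 2 of the 183 cells had one in common with a kept or discarded barcode of another tumour.

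Crabp2 carried most of the selection. It had a UMI in 162 of the 179 cells (90.5%), Esm1 in 69 (38.5%) and Cst6 in 61 (34.1%). Crabp2 alone was found in 71 cells, Crabp2 with Esm1 in 39, Crabp2 with Cst6 in 32, and all 3 genes in 20. The remaining 17 cells are 8 with Esm1 alone, 7 with Cst6 alone and 2 with both of these. The summed UMIs of the 3 genes ranged from 2 to 39 per cell with a median of 4, and 40 cells stood at the minimum of 2.

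The 3 naming genes were not particular to these cells. Crabp2 was at 297 CPM (95% interval 276 to 318) in Cst6/Crabp2 cells, against 143 in Pax6/Lingo2 cells, 27.8 in epithelial cells and 160 in fibroblast cells. Cst6 was at 49.2 CPM (41.1 to 58.4) in Cst6/Crabp2 cells, against 25.3 in Pax6/Lingo2 cells, 6.16 in epithelial cells and 70.6 in fibroblast cells. Esm1 was at 58.6 CPM (49.8 to 68.5) in Cst6/Crabp2 cells, against 16.5 in Pax6/Lingo2 cells, 3.34 in epithelial cells and 57.5 in fibroblast cells. Of the 897 Pax6/Lingo2 cells, 456 (50.8%) also held at least 2 UMIs of the 3 genes together, so the 2 populations overlap in these genes and are parted by Pax6, Lingo2 and Slc14a1.

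Cdkn2a was at 2613 CPM in Cst6/Crabp2 cells, against 1320 in Pax6/Lingo2 cells. Hmga2 was at 539 CPM in Cst6/Crabp2 cells, against 1240 in Pax6/Lingo2 cells. The cells that met the same rule except that they had 2 or more Dcn UMIs, 235 in tumour 2 and called Dcn-positive counterparts here, had 351 CPM of Crabp2, 136 of Cst6 and 123 of Esm1. Those of them with at least 5 Dcn UMIs are also counted among the fibroblast cells, so the 2 populations overlap.

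**Figure D1:**
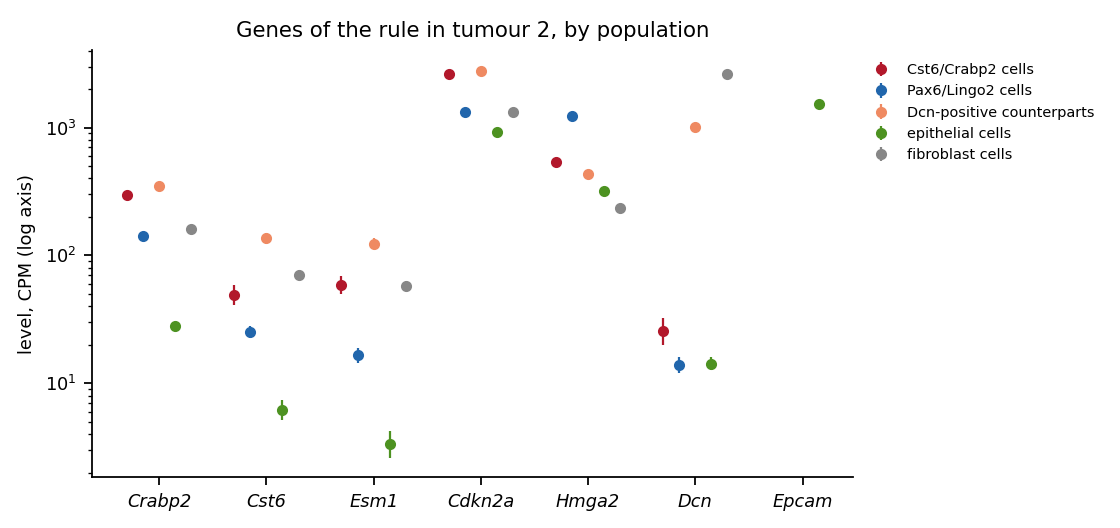
Levels of 7 genes of the rule in tumour 2 in CPM (log axis), with points for the summed level of each population and bars for exact Poisson 95% intervals. Crabp2, Cst6 and Esm1 are as high or higher in Dcn-positive counterparts than in Cst6/Crabp2 cells, and Cdkn2a and Hmga2 go opposite ways between Cst6/Crabp2 and Pax6/Lingo2 cells; populations at 0 UMIs have no point.

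Just inside and just outside the thresholds the cells were alike on Vim and differed on the other genes given here. Vim was at 2711 CPM in cells with a sum of 2 and 2590 in those with a sum of 1. It was at 2731 CPM in cells with 1 Dcn UMI and 2537 in those with 2. The 40 cells with a sum of 2 had 474 CPM of Crabp1 and 1134 of Krt18, against 270 and 493 in the 76 cells of the gate with a sum of 1. The Krt18 level leans on a single cell of the 40, which held 145 Krt18 UMIs, the most of any Cst6/Crabp2 cell. Col1a1 was at 418 CPM in the cells with a sum of 2, against 757 in those with a sum of 1. The 68 cells with 1 Dcn UMI had 512 CPM of Col1a1 and 854 of Bgn, against 706 and 1091 in the 36 cells with 2 Dcn UMIs. Npy, whose UMIs lie mostly in a few cells as given below, was at 194 CPM with 1 Dcn UMI and 12.7 with 2.

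The label was checked on genes that the rule did not use. Vim, an intermediate filament of mesenchymal cells, was found in 178 of 179 cells at 2745 CPM, against 3545 in Pax6/Lingo2 cells, 811 in epithelial cells and 1867 in fibroblast cells. Prrx1, a mesenchymal transcription factor, was at 170 CPM in Cst6/Crabp2 cells, against 27.0 in epithelial cells. The simple-epithelium keratin Krt18 was still found in 155 of the 179 cells at 800 CPM, against 3281 in epithelial cells and 258 in fibroblast cells. The duct keratins Krt19 and Krt7 were at 59.3 and 25.5 CPM in Cst6/Crabp2 cells, against 1464 and 1269 in epithelial cells and 160 and 50.2 in fibroblast cells. The Cst6/Crabp2 cells thus lay between the epithelial and fibroblast cells on Krt18, below both on Krt19 and Krt7, and above both on Vim.

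Over the whole marker lists, the 10 epithelial markers summed to 1502 CPM in Cst6/Crabp2 cells, with Epcam at 0, against 1117 in Pax6/Lingo2 cells, 10375 in epithelial cells and 675 in fibroblast cells. The 10 fibroblast markers summed to 1740 CPM in Cst6/Crabp2 cells, with Pi16 at 0, against 850 in Pax6/Lingo2 cells, 239 in epithelial cells and 12579 in fibroblast cells. Each of these 2 lists holds a rule gene, so part of both gaps was set by the choice of cells. Epcam gave 1534 CPM of the sum in epithelial cells. Dcn gave 2643 CPM of the sum in fibroblast cells and 25.5 in Cst6/Crabp2 cells. Pdgfra, on which the sort was made, was at 5.26 CPM in Cst6/Crabp2 cells, against 29.2 in Pax6/Lingo2 cells and 52.8 in fibroblast cells. Macrophage markers summed to 8.64 CPM, with Ptprc, Csf1r, Adgre1, C1qa and C1qb at 0, and T and B cell markers to 1.13 CPM. Endothelial markers summed to 55.2 CPM in Cst6/Crabp2 cells with Tie1 at 0, against 148 in Pax6/Lingo2 cells; most of it in Cst6/Crabp2 cells was Flt1, a VEGF receptor, at 40.9 CPM.

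The Cst6/Crabp2 cells did not form one compact group in expression. With the 10 rule genes left out, the 15 nearest cells of a Cst6/Crabp2 cell held on average 14.7% Cst6/Crabp2 cells, 15.8% Pax6/Lingo2 cells, 13.6% Dcn-positive counterparts and 33.8% cells of none of the named populations. No Cst6/Crabp2 cell had a majority of 8 or more of its own kind, while 684 of 897 Pax6/Lingo2 cells did. Cst6/Crabp2 cells are 2.95% of the kept cells of the tumour and Pax6/Lingo2 cells 14.8%, so a majority is harder to reach for the rarer population. Of the nearest cells of Dcn-positive counterparts, 31.6% were of their own kind, at a share of 3.87% of the kept cells.

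**Figure D2:**
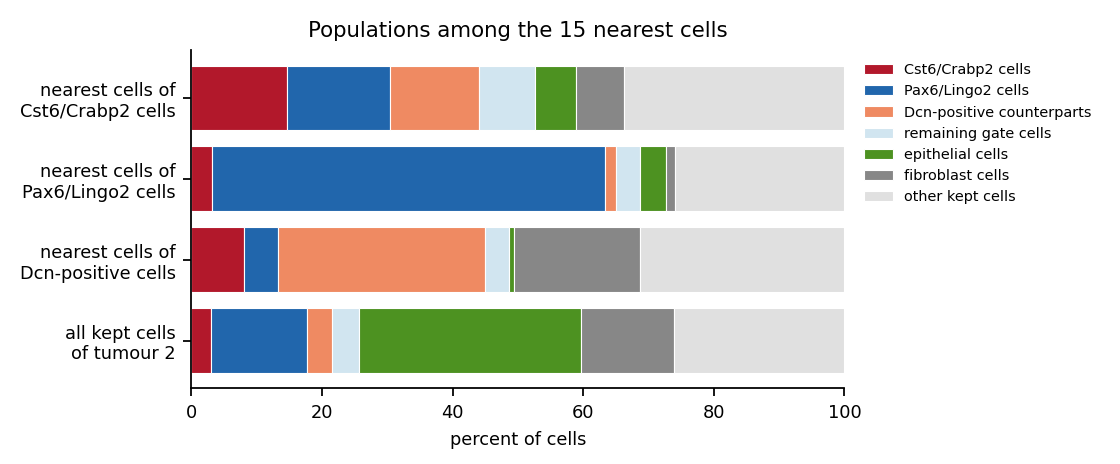
Mean composition, in percent, of the 15 nearest cells of each Cst6/Crabp2 cell, Pax6/Lingo2 cell and Dcn-positive counterpart of tumour 2, with the composition of all kept cells as the bottom bar. Pax6/Lingo2 cells lie mostly beside each other (60.1%), while the nearest cells of Cst6/Crabp2 cells are spread unevenly over the populations. Their own kind is at 14.7%, against 2.95% of kept cells, and epithelial cells at 6.33%, against 34.0%.

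Set against Pax6/Lingo2 cells, the question was what else differs between these 2 kinds of mesenchymal tumour-like cells. Matrix genes were higher in Cst6/Crabp2 cells, led by Col1a1 and Bgn, together with Igf2. A group of genes that includes Grp and Cnr1 was nearly absent from Cst6/Crabp2 cells. Pax6, Lingo2 and Slc14a1 part these 2 populations by rule, so genes that vary with them differ in part by choice. The same holds for genes that vary with Cst6, Esm1 and Crabp2, of which only Cst6/Crabp2 cells had to hold 2 UMIs. Genes were counted as different when past 4-fold with at least 50 UMIs in the 2 sums together. The sum of the other population is the larger one in each comparison, so a gene can reach 50 UMIs through it alone and is then low in Cst6/Crabp2 cells by that choice. Of 9976 genes with that many UMIs, 25 were at least 4-fold higher in Cst6/Crabp2 cells (0.251%) and 127 at least 4-fold lower (1.27%). Past 2-fold, 1.88% of the genes were higher and 6.83% lower, and the median log2 fold over all genes was -0.15. After thinning to 3000 UMIs per cell, which leaves fewer genes with 50 UMIs, 9 genes were at least 4-fold higher and 69 lower.

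Col1a1, the main chain of type I collagen, was at 486 CPM in Cst6/Crabp2 cells, against 81.1 CPM in Pax6/Lingo2 cells, a log2 fold of 2.58 (2.47 to 2.70). Bgn, the matrix proteoglycan biglycan, was at 780 CPM in Cst6/Crabp2 cells, against 145 in Pax6/Lingo2 cells, a log2 fold of 2.43 (2.34 to 2.52). Both were spread over many cells, with Bgn in 141 and Col1a1 in 121 of the 179.

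After each cell was thinned to 3000 UMIs, Bgn was found in 65.4% of Cst6/Crabp2 cells, against 17.8% of Pax6/Lingo2 cells. Epithelial cells had it in 11.8%, and whether these UMIs are free RNA or their own transcripts was not tested. The same share for Col1a1 was 43.0% of Cst6/Crabp2 cells, against 12.7% of Pax6/Lingo2 cells and 9.54% of epithelial cells. Neither gene was particular to Cst6/Crabp2 cells. Bgn was in 92.3% and Col1a1 in 75.3% of Dcn-positive counterparts, which were picked for more Dcn. The other 243 cells of the gate had them in 35.4% and 30.9%. For Pax6/Lingo2 cells the shares of these 2 genes are thus a little above those of epithelial cells, and for Cst6/Crabp2 cells several times as large. This did not hold for Col1a2, the partner chain of Col1a1. It was found in 65.9% of Cst6/Crabp2 cells and 53.8% of Pax6/Lingo2 cells, against 12.8% of epithelial cells.

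Of the 24 measured genes of fibrillar matrix, 8 were at least 2-fold higher in Cst6/Crabp2 cells and 0 at least 2-fold lower, with a median log2 fold of 0.63 against -0.15 over all genes. Beside Col1a1 and Bgn, Postn (periostin) was at 49.9 CPM in Cst6/Crabp2 cells, against 12.9 in Pax6/Lingo2 cells. Col6a1, a chain of type VI collagen, was at 151 CPM in Cst6/Crabp2 cells, against 48.9 in Pax6/Lingo2 cells. Sparc, a collagen-binding glycoprotein, was level, at 1274 CPM in Cst6/Crabp2 cells and 1270 in Pax6/Lingo2 cells. The fibroblast marker list differs between the 2 populations in the same direction, as given above, and its part in these differences was not tested; its Dcn is limited to 1 UMI in both populations by the rule.

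Igf2, an imprinted fetal growth factor, was at 124 CPM in Cst6/Crabp2 cells, against 18.5 in Pax6/Lingo2 cells, a log2 fold of 2.74 (2.50 to 2.98), and was found in 55 of the 179 cells. H19, the imprinted neighbour of Igf2, went the other way, at 30.4 CPM in Cst6/Crabp2 cells, against 87.8 in Pax6/Lingo2 cells. Mgp, a matrix protein that inhibits calcification, was at 290 CPM in Cst6/Crabp2 cells, against 63.1 in Pax6/Lingo2 cells, a log2 fold of 2.20, but 176 of its 772 UMIs lay in 1 cell. Without that cell Mgp was at 226 CPM, a log2 fold of 1.84, below the 4-fold call. Tfpi, an inhibitor of the tissue factor pathway of coagulation, was at 36.1 CPM in Cst6/Crabp2 cells, against 5.24 in Pax6/Lingo2 cells. Cth, an enzyme that makes cysteine from cystathionine, was at 36.1 CPM in Cst6/Crabp2 cells, against 4.22 in Pax6/Lingo2 cells. Tle1, a transcriptional corepressor, was at 32.3 CPM in Cst6/Crabp2 cells, against 8.0 in Pax6/Lingo2 cells, a log2 fold of 2.01 that was 1.90 without its highest cell. Tfpi and Tle1 were found in 62 and 58 of the 179 cells. The 10 highest cells held 66.2% of the Mgp UMIs, 63.5% of those of Cth and 51.4% of those of Igf2, against 31.2% for Tfpi and 34.9% for Tle1. Without the highest cell, the log2 folds of Igf2, Cth and Tfpi were 2.54, 2.95 and 2.74. After thinning, Igf2 was in 17.9% of Cst6/Crabp2 cells, against 34.9% of Dcn-positive counterparts. In the same order, Mgp was in 25.1% and 32.3%, Tfpi in 9.50% and 12.3%, and Cth in 5.59% and 8.09%. Tle1 went the other way, at 12.8% and 8.51%.

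The 3 other genes that led the list rest on a few cells. Cck, a peptide hormone, was at 59.3 CPM in Cst6/Crabp2 cells, against 0.218 in Pax6/Lingo2 cells, but 142 of its 158 UMIs lay in 1 cell and the others in 2 more. Npy, neuropeptide Y, was at 319 CPM in Cst6/Crabp2 cells, against 67.8 in Pax6/Lingo2 cells, a log2 fold of 2.23. It was found in 43 of the 179 cells, and 10 of them held 95.5% of its UMIs; without the single highest cell, the level was 214 CPM and the log2 fold 1.66, below the 4-fold call. After thinning, Npy was in 8.38% of Cst6/Crabp2 cells, against 11.8% of Pax6/Lingo2 cells and 16.9% of epithelial cells, so the share of cells with Npy does not go with the higher sum. Rpl39l, a ribosomal protein paralogue whose reads may be split with Rpl39, was found in 8 cells at 24.4 CPM in Cst6/Crabp2 cells, against 0.727 CPM in Pax6/Lingo2 cells.

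**Figure D3:**
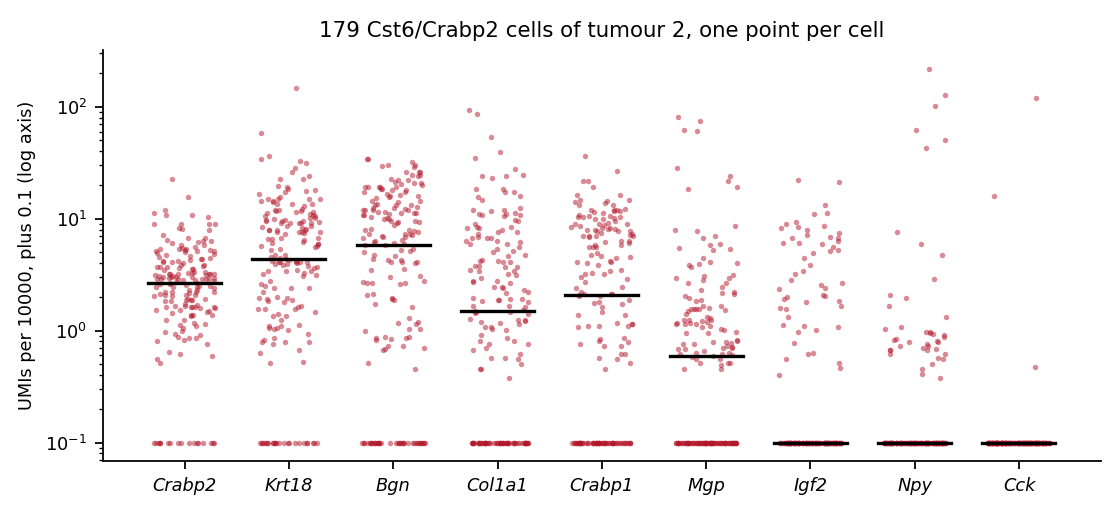
UMIs per 10000 of the cell's UMIs (log axis, 0.1 added) of 9 genes in each of the 179 Cst6/Crabp2 cells of tumour 2; points are cells and lines are medians, with cells at 0 UMIs on the lowest row. Bgn and Krt18 are found in most cells, while the UMIs of Npy and Cck lie in a few cells.

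Grp, the precursor of gastrin-releasing peptide, led the lower side. It was at 7.14 CPM in Cst6/Crabp2 cells, against 247 in Pax6/Lingo2 cells, a log2 fold of -5.11 (-5.85 to -4.47), with a UMI in 9 of 179 and 289 of 897 cells. Cnr1, the cannabinoid receptor, had 2 UMIs (0.751 CPM) in Cst6/Crabp2 cells, against 22.8 CPM in Pax6/Lingo2 cells, a log2 fold of -4.92 with an interval of -7.97 to -3.06. Pgm5, a cytoskeletal protein related to phosphoglucomutase, was at 2.25 CPM in Cst6/Crabp2 cells, against 40.1 in Pax6/Lingo2 cells. These 3 genes are the most abundant of the 12 with the lowest folds. Without thinning, Cnr1 was in 25.4% of Pax6/Lingo2 cells, 1.12% of Cst6/Crabp2 cells, 0.851% of Dcn-positive counterparts and 2.06% of the other 243 gate cells. In the same order, the shares were 39.4%, 2.79%, 1.28% and 4.12% for Pgm5, and 32.2%, 5.03%, 4.68% and 9.47% for Grp. Each of the 3 was in at most 3.97% of epithelial and of fibroblast cells. Ildr2, given below, was in 27.0% of fibroblast cells and 14.4% of Pax6/Lingo2 cells.

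The other 9 genes at the lower end (Ildr2, Dach1, Blnk, Lrrn3, Prkcb, Cdh23, Gabrg3, Adra1b and Mmp10) had 1 or 2 UMIs in all Cst6/Crabp2 cells together. Their log2 folds ran from -5.00 for Ildr2 (-10.3 to -2.50) to -3.94 for Mmp10 (-9.26 to -1.42), so their size is poorly fixed. Outside these, Peg3, an imprinted zinc finger gene, was at 2.25 CPM in Cst6/Crabp2 cells, against 24.8 in Pax6/Lingo2 cells. Igf2bp1, an oncofetal RNA-binding protein, was at 12.8 CPM in Cst6/Crabp2 cells, against 40.3 in Pax6/Lingo2 cells.

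Lists of the Wnt pathway and of interferon response held more lower than higher genes. Of 17 measured genes of the Wnt pathway, 7 were at least 2-fold lower in Cst6/Crabp2 cells and 1 higher, beside 6.83% of all genes lower and 1.88% higher, with a median log2 fold of -0.63; the antagonist Dkk2 was at 115 CPM in Cst6/Crabp2 cells, against 384 in Pax6/Lingo2 cells. Of 13 genes of interferon response and MHC class I, 4 were at least 2-fold lower and 0 higher, with a median of -0.86. The class I gene H2-K1 was at 18.8 CPM in Cst6/Crabp2 cells, against 36.9 in Pax6/Lingo2 cells. In the list of AP-1 and early-response genes 1 of 18 was at least 2-fold lower and 0 higher, a share not above that of all genes, with a median of -0.68; Egr1, an immediate-early factor, was at 169 CPM in Cst6/Crabp2 cells, against 384 in Pax6/Lingo2 cells.

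The G1 cyclins went opposite ways. Ccnd1 was at 377 CPM in Cst6/Crabp2 cells, against 883 in Pax6/Lingo2 cells, a log2 fold of -1.23 (-1.32 to -1.14). Ccnd2 was at 266 CPM in Cst6/Crabp2 cells, against 126 in Pax6/Lingo2 cells, a log2 fold of 1.08 (0.95 to 1.2). Cdkn2b, the neighbour of Cdkn2a and an inhibitor of the same kinases, was at 233 CPM in Cst6/Crabp2 cells, against 135 in Pax6/Lingo2 cells. The lists of S phase (median log2 fold 0.07) and of G2 and M phase (-0.25) had 0 and 1 of their 20 and 22 genes past 2-fold.

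Crabp1, the sister protein of Crabp2, was at nearly the same level in both populations, 499 CPM in Cst6/Crabp2 cells and 466 in Pax6/Lingo2 cells. In Cst6/Crabp2 cells it was found together with Crabp2 in 112 of 179 cells. Fabp5, which can also carry retinoic acid, was at 272 CPM in Cst6/Crabp2 cells, against 143 in Pax6/Lingo2 cells. Of the 12 measured genes of the retinoic acid pathway, 0 were at least 2-fold higher and 1 was lower, with a median of -0.16. Of the 12 measured cystatins and lysosomal proteases, the enzymes that cystatins act on among them, 0 passed 2-fold either way.

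Set against epithelial cells, the Cst6/Crabp2 cells had more matrix and mitotic transcripts and few epithelial transcription factors. Epcam parts these 2 groups by rule, so genes that vary with Epcam differ in part by choice. Of 11273 genes, 180 were at least 4-fold higher (1.6%) and 1108 at least 4-fold lower (9.83%); past 2-fold, 6.44% were higher and 20.9% lower. Of 23 measured genes of fibrillar matrix, 15 were at least 4-fold higher in Cst6/Crabp2 cells and 0 lower, with a median log2 fold of 2.28 against -0.16 over all genes. Cthrc1, a secreted protein of collagen-rich tissue, was at 229 CPM in Cst6/Crabp2 cells, against 13.9 in epithelial cells. Col11a1, a fibrillar collagen chain, was at 42.1 CPM in Cst6/Crabp2 cells, against 2.91 in epithelial cells. Bcat1, an enzyme that breaks down branched-chain amino acids, was at 34.2 CPM in Cst6/Crabp2 cells, against 1.96 in epithelial cells.

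The other genes named on the higher side were Igf2, Bgn, Cck, Rpl39l, Cth, Mest, Wisp1 and Clmp, besides Snai1. Mest was found in 13 Cst6/Crabp2 cells, with 38 of its 86 UMIs in the highest cell. Snai1, a repressor of Cdh1, was at 25.5 CPM in Cst6/Crabp2 cells, against 2.34 in epithelial cells. Cdh1, the epithelial cadherin, was at 8.26 CPM in Cst6/Crabp2 cells, against 207 in epithelial cells. Esrp1, an epithelial splicing factor, had 2 UMIs (0.751 CPM) in Cst6/Crabp2 cells, against 26.2 CPM in epithelial cells, a log2 fold of -5.13 (-8.17 to -3.27). Over the list of transcription factors and cadherins of the epithelial-mesenchymal transition, 9 of 17 were at least 2-fold higher and 5 lower.

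Of 14 measured pancreatic and endodermal factors, 9 were at least 4-fold lower in Cst6/Crabp2 cells and 0 higher, with a median log2 fold of -2.37. Onecut2 was at 33.8 CPM in Cst6/Crabp2 cells, against 737 in epithelial cells. Pdx1, the factor that specifies the pancreas, was closer, at 15 CPM in Cst6/Crabp2 cells, against 22 in epithelial cells. Sox9, a duct and progenitor factor, was at 77.7 CPM in Cst6/Crabp2 cells, against 192 in epithelial cells. The 12 genes with the lowest folds (Paqr5, Sftpd, Gabrp, Erbb3, Ppy, Ripply3, Spint1, Gsta1, Arl14, Ehf, Pigr and AI661453) had between 1 and 4 UMIs each in all Cst6/Crabp2 cells together.

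Mitotic, neuronal and interferon genes also stood apart from the median of all genes. Of 22 genes of G2 and M phase, 11 were at least 2-fold higher in Cst6/Crabp2 cells and 0 lower, with a median of 0.95; Ccnb1, a mitotic cyclin, was at 43.9 CPM in Cst6/Crabp2 cells, against 16.7 in epithelial cells. Of 20 genes of S phase, 3 were at least 2-fold higher and 0 lower, with a median of 0.62. Of 10 measured neuronal genes, 7 were at least 2-fold higher, among them Tubb3, a neuronal tubulin, at 42.1 CPM in Cst6/Crabp2 cells, against 9.12 in epithelial cells. Stmn2, a neuronal tubulin-binding protein, was at 454 CPM in Cst6/Crabp2 cells, against 130 in epithelial cells. Pax6/Lingo2 cells were higher still on the last 2 genes, with 63.3 CPM of Tubb3 and 685 of Stmn2. Of 19 genes of interferon response and MHC class I, 14 were at least 2-fold lower and 0 higher, with H2-K1 at 18.8 CPM in Cst6/Crabp2 cells, against 116 in epithelial cells.

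Set against fibroblast cells, the Cst6/Crabp2 cells had fewer transcripts of matrix genes of fibroblasts. Dcn parts these 2 groups by rule, so genes that vary with Dcn, matrix genes among them, differ in part by choice. Of 9969 genes, 16 were at least 4-fold higher (0.16%) and 734 at least 4-fold lower (7.36%); past 2-fold, 2.56% were higher and 15.5% lower, and the median over all genes was -0.15. The fibroblast cells were picked on Epcam and Dcn with no condition on Hmga2, and 37.1% of them held a Hmga2 UMI. Against the fibroblast cells with 0 Hmga2 UMIs, an alternative added after seeing the data, 145 genes were at least 4-fold higher in Cst6/Crabp2 cells.

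Hox genes, which mark position along the body axis, were hardly found in Cst6/Crabp2 cells. Of the 34 in the list, 11 reached 50 UMIs, all through the fibroblast cells, so the lower level of these 11 follows from the filter and their count is not read as a result. Hoxa5 had 1 UMI (0.376 CPM) in Cst6/Crabp2 cells, against 38.1 CPM in fibroblast cells, a log2 fold of -6.66 (-12.0 to -4.18). Hoxb4 had 3 UMIs (1.13 CPM) in Cst6/Crabp2 cells, against 22.1 CPM in fibroblast cells. Hoxa7, Hoxb5, Hoxb6, Hoxb7 and Hoxb8 had 0 UMIs in Cst6/Crabp2 cells. Pax6/Lingo2 and epithelial cells were as low, with 0.364 and 0.334 CPM of Hoxa5, and against either 0 of the 34 genes had 50 UMIs.

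Of 25 measured genes of fibrillar matrix, 17 were at least 4-fold lower in Cst6/Crabp2 cells and 0 higher, with a median of -2.35. Col1a1, at 486 CPM in Cst6/Crabp2 cells, was at 2471 in fibroblast cells. Lum (lumican) was at 15.8 CPM in Cst6/Crabp2 cells, against 526 in fibroblast cells. Bgn was the closest of the abundant ones, at 780 CPM in Cst6/Crabp2 cells, against 1707 in fibroblast cells, a log2 fold of -1.13.

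Of 19 genes of interferon response and MHC class I, 14 were at least 4-fold lower in Cst6/Crabp2 cells and 0 higher, with a median of -3.24. Psmb8, an immunoproteasome subunit, had 2 UMIs (0.751 CPM) in Cst6/Crabp2 cells, against 54.0 CPM in fibroblast cells, a log2 fold of -6.17 (-9.22 to -4.31). H2-D1, a class I heavy chain, was at 40.9 CPM in Cst6/Crabp2 cells, against 233 in fibroblast cells. The light chain B2m, by contrast, was at 1024 CPM in Cst6/Crabp2 cells, against 1686 in fibroblast cells and 546 in epithelial cells.

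Genes of the retinoic acid pathway were mostly lower than in fibroblast cells. Of its 18 measured genes, 11 were at least 2-fold lower and 2 higher in Cst6/Crabp2 cells, and 6 were at least 4-fold lower, with a median of -1.71. Aldh1a2, which makes retinoic acid, had 3 UMIs (1.13 CPM) in Cst6/Crabp2 cells, against 85.2 CPM in fibroblast cells, a log2 fold of -6.24 (-8.52 to -4.69). Cyp26a1, which degrades it, had 0 UMIs in Cst6/Crabp2 cells, where 3 UMIs would be 1.13 CPM, against 67.3 CPM in fibroblast cells, so it was at least 59.8-fold lower. The carriers Crabp1 and Fabp5 were the 2 higher genes, with 499 and 272 CPM in Cst6/Crabp2 cells, against 199 and 109 in fibroblast cells.

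Against epithelial cells, 8 of the 16 measured genes of the pathway were at least 2-fold lower and 2 higher, with a median of -0.99, beside 20.9% of all genes lower and 6.44% higher. The 2 higher ones were again Crabp1 and Fabp5, at 499 and 272 CPM in Cst6/Crabp2 cells, against 68.9 and 71.7 in epithelial cells. Aldh1a3, another enzyme that makes retinoic acid, was at 17.6 CPM in Cst6/Crabp2 cells, against 155 in epithelial cells. Rdh10, which makes retinal from retinol, was at 22.2 CPM in Cst6/Crabp2 cells, against 180 in epithelial cells.

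Of 25 genes of the Wnt pathway, 11 were at least 4-fold lower in Cst6/Crabp2 cells than in fibroblast cells, with a median of -1.49; Sfrp1, a secreted antagonist, was at 6.38 CPM in Cst6/Crabp2 cells, against 439 in fibroblast cells. Of 29 cytokines and growth factors, 8 were at least 4-fold lower and 0 higher; Il33 was at 9.39 CPM in Cst6/Crabp2 cells, against 158 in fibroblast cells. On the higher side stood the cell cycle, with 14 of 22 genes of G2 and M phase and 11 of 20 of S phase at least 2-fold higher. Igf2bp1 was at 12.8 CPM in Cst6/Crabp2 cells, against 2.81 in fibroblast cells. The part of depth, which differs between these populations as given above, was not tested.

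Beside Npy and Cck, which rest on the few cells described above, 4 genes were named on the higher side. Cldn6, a claudin of embryonic epithelia, was at 21.0 CPM in Cst6/Crabp2 cells, against 3.23 in fibroblast cells. Fermt1, an integrin activator of epithelia, was at 21.8 CPM in Cst6/Crabp2 cells, against 4.27 in fibroblast cells. Onecut2 was at 33.8 CPM in Cst6/Crabp2 cells, against 7.39 in fibroblast cells. The transcript A230065H16Rik was at 23.7 CPM in Cst6/Crabp2 cells, against 4.89 in fibroblast cells. The highest cell held 17 of the 56 UMIs of Cldn6 and 16 of the 63 of A230065H16Rik. It held 14 of the 90 of Onecut2 and 5 of the 58 of Fermt1. The named genes of the lower side were Cd74, Nkd2, Cd59a, Abi3bp, Cpxm2, Cilp, Ildr2, Slpi, Saa3, Trem2, Hsd11b1 and Fndc1. Of these, Saa3, an acute-phase protein, was at 13.1 CPM in Cst6/Crabp2 cells, against 1612 in fibroblast cells. Slpi, a protease inhibitor, was at 8.26 CPM in Cst6/Crabp2 cells, against 1060 in fibroblast cells.

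**Figure D4:**
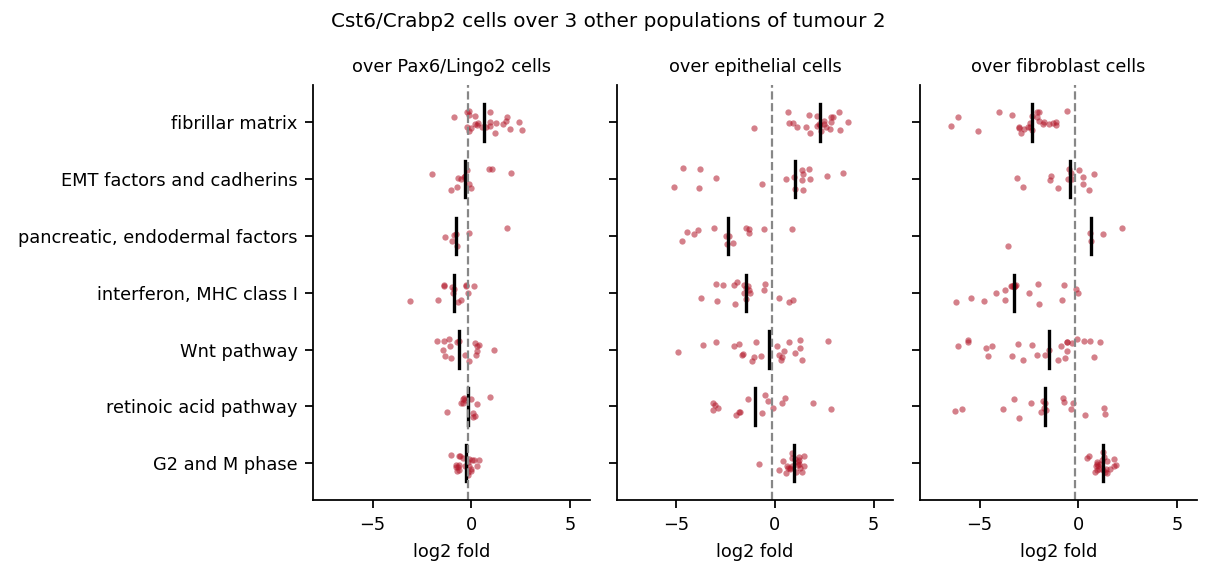
Log2 fold of Cst6/Crabp2 cells over Pax6/Lingo2, epithelial and fibroblast cells of tumour 2 for the measured genes of 7 lists; points are genes, black bars the median of each list, and the dashed line the median over all genes. Fibrillar matrix lies right of the dashed line against Pax6/Lingo2 and epithelial cells (medians 0.63 and 2.28) and left of it against fibroblast cells (-2.35), and the median of interferon response and MHC class I lies left of it in all 3.

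Of the 4 populations that Cst6/Crabp2 cells were set against, the Dcn-positive counterparts had the fewest genes past 4-fold, over fewer measured genes and a smaller sum; the other 243 cells of the gate were not compared. Of 7469 genes, 8 were at least 4-fold higher in Cst6/Crabp2 cells (0.107%) and 34 at least 4-fold lower (0.455%), and since Dcn parts the 2 groups by rule, genes that vary with Dcn differ by choice. On the lower side was the fibroblast gene Lum, at 15.8 CPM in Cst6/Crabp2 cells, against 161 in Dcn-positive counterparts. Col14a1, a collagen chain bound to fibrils, was at 4.13 CPM in Cst6/Crabp2 cells, against 44.4 in Dcn-positive counterparts. Cd74, an invariant chain of MHC class II, had 1 UMI (0.376 CPM) in Cst6/Crabp2 cells, against 16.3 CPM in Dcn-positive counterparts. Those 53 UMIs lay in 5 of the counterparts. On the higher side was Npy, at 319 CPM in Cst6/Crabp2 cells, against 19.7 in Dcn-positive counterparts. Cd24a, an epithelial surface protein, was at 39.8 CPM in Cst6/Crabp2 cells, against 8.32 in Dcn-positive counterparts, with 32 of its 106 UMIs in the highest cell. Penk, the enkephalin precursor, was at 69.9 CPM in Cst6/Crabp2 cells, against 8.01 in Dcn-positive counterparts, but 137 of its 186 UMIs lay in 1 cell.

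A group of Cst6/Crabp2 cells stood out on a run of neighbouring genes of chromosome 15. The run was noticed in the values of these cells and is described without a test. It spans 41 genes with at least 50 UMIs in tumour 2, in GENCODE vM21 order from Taf2 to Ndrg1, and includes Myc and Pvt1. Cells were called high when the summed share of 20 alternate genes of the run reached 3 times the median of all kept cells of tumour 2; Myc and Pvt1 were not used, and the 19 genes in between were kept aside.

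By this measure 22 of the 179 Cst6/Crabp2 cells were high, or 12.3% (exact binomial 95% interval 7.87% to 18%). The share was 1.78% of Pax6/Lingo2 cells, 11.5% of Dcn-positive counterparts, 3.58% of epithelial cells and 4.64% of fibroblast cells. High cells were not equally set apart in each population. Genes kept aside made up 0.528% of UMIs in high and 0.0783% in other Cst6/Crabp2 cells. These values were 0.343% and 0.103% in Dcn-positive counterparts and 0.156% and 0.0837% in Pax6/Lingo2 cells. They were closer in epithelial cells (0.110% and 0.0833%) and fibroblast cells (0.111% and 0.0887%). Over all kept cells the share of high cells was 1.34%, 3.89% and 0.996% in tumours 1, 2 and 3. In tumours 1 and 3 the genes kept aside hardly differed, at 0.0892% in high and 0.0854% in other cells, and 0.0867% and 0.0982%. Within 20% of the cut lay 12 of the Cst6/Crabp2 cells, 109 epithelial cells, where 74 were high, and 52 fibroblast cells, where 48 were high. High Cst6/Crabp2 cells were as deep as the others, with medians of 13654 and 13608 UMIs.

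The run and its ends were chosen on the values of these same cells, so the genes kept aside, and those before and after it, are a description and no independent check. Of the 16 kept aside with at least 20 UMIs, 15 were at least 2-fold higher in the 22 cells than in the other 157, with a median log2 fold of 2.54. The 14 genes before the run had a median of -0.15 and the 9 after it of -0.59, and genes on other chromosomes a median of 0.00. The ends are not sharp in every gene: Nov, a secreted CCN protein that lies just before the run, was at 49.1 CPM in the 22 cells, against 12.1 in the others, a log2 fold of 2.02 (1.06 to 2.94). Ndufb9, a subunit of respiratory complex I, was at 3989 CPM in the 22 cells, against 512 in the others. Dscc1, which loads the replication clamp, was at 78.0 CPM in the 22 cells, against 3.88 in the others, a log2 fold of 4.33 (3.2 to 5.6).

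The fold varied along the run. Myc was at 107 CPM in the 22 cells, against 63.0 in the others, a log2 fold of 0.76 (0.20 to 1.29). Pvt1, the long non-coding neighbour of Myc, was at 69.4 CPM in the 22 cells, against 78.1 in the others. The next measured genes after Pvt1, Fam49b and Asap1, had log2 folds of 3.02 and 2.16, and Fbxo32, earlier in the run, had one of 0.28 (-1.71 to 1.84). The exception among the genes kept aside was Wisp1, a secreted CCN protein, at 26.0 CPM in the 22 cells, against 30.2 in the others.

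The 22 cells also differed off the run. Igf2 was at 338 CPM in the 22 cells, against 91.5 in the others, and 17 of the 22 held a UMI of it, against 38 of the 157. Npy had 1 UMI (2.89 CPM) in the 22 cells, against 366 CPM in the others. Crabp2 was at 364 CPM in the 22 cells and 287 in the others. Col1a2, a type I collagen chain, was at 679 CPM in the 22 cells and 705 in the others. With the 22 cells left out, an alternative added after seeing the data, the count of genes past 4-fold against Pax6/Lingo2 cells stayed within 1.5 times of the values above in both directions.

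**Figure D5:**
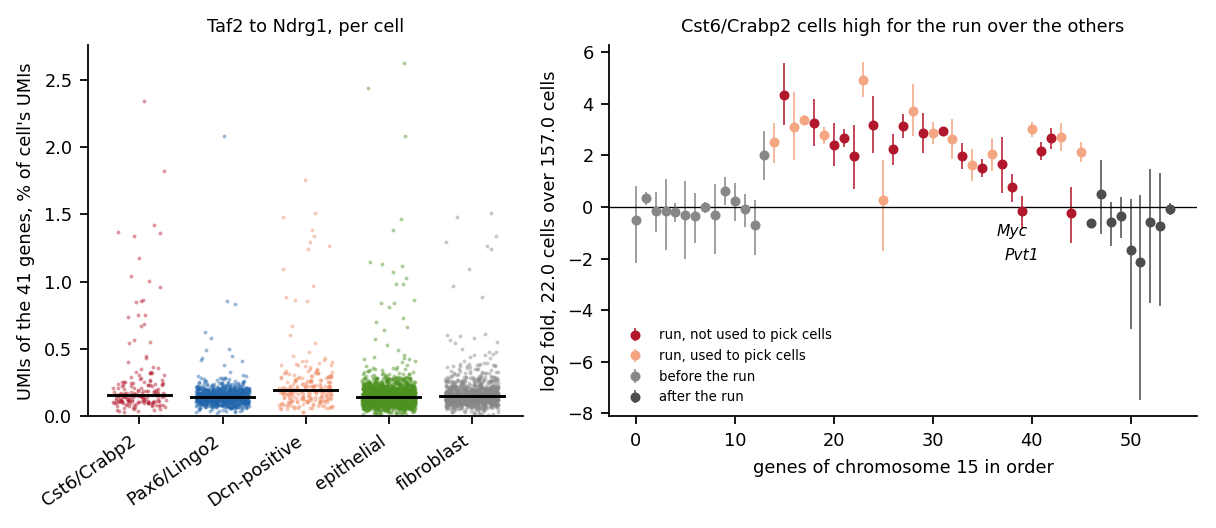
Left, the share of a cell's UMIs from the 41 genes of the run, in percent, for each cell of 5 populations of tumour 2, with lines at the medians. Right, log2 fold of the 22 high Cst6/Crabp2 cells over the other 157 for genes with at least 20 UMIs in chromosome order, with exact 95% counting intervals; genes of the run lie above 0 except Pvt1 and Wisp1, and the genes before and after it have medians of -0.15 and -0.59, with Nov, before it, at 2.02.

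Chromosomes 16 and 4 had a median apart from the rest in the comparison with Pax6/Lingo2 cells. The median log2 fold was 0.14 over 303 genes of chromosome 16 and 0.08 over 597 genes of chromosome 4, against -0.15 over all genes. Chromosome 15 as a whole stood at -0.04. The medians of the other chromosomes lay between -0.23 for chromosome 1 and -0.02 for chromosome 3.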

How the data were processed

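Per the labels' protocols, sorted single cells of 3 tumours went through the 10x Genomics 3′ expression kit (v2). Cell Ranger 2.1.1 and Seurat 3.0 are listed, per the submitters' processing notes, and no label or file header used names a genome build. The deposited matrix holds UMI counts of 28692 genes per barcode, and tumours were told apart by the barcode ending that the labels give. The total count was 60801677, 67262634 and 53162622 UMIs in tumours 1, 2 and 3. The authors' deposited table of 19 clusters gives a log2 fold change and a p-value per gene; its log2 values are quoted in the closing section only and its p-values are not used.

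Members, gene lists and tests were chosen with earlier results of these data known. The planned edgeR test needed 20 cells of both populations in at least 2 tumours, and only tumour 2 holds them, so counts were summed per population in tumour 2 and compared as CPM, with exact Poisson intervals for levels and exact conditional intervals for folds (scipy 1.17.1), and with no p-value. A sum of 0 was set to 3 counts, which makes the fold a bound. A gene was measured with at least 50 UMIs in the 2 sums and called past 4-fold; the 10 rule genes were left out of calls and kept in totals. The text names the 12 highest genes of at least 20 CPM and the 12 lowest genes past 4-fold per comparison, the rule genes, and members of 24 lists. Rule genes were chosen on their values, and the Dcn-positive counterparts and the chromosome 15 run were added after seeing the data.

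Nearest cells were found on 2000 variable genes and 30 principal components (scanpy 1.11.5). GENCODE vM21 gave chromosome and gene order for 28339 of the 28692 genes by ID. Size factors for the alternatives came from edgeR 4.0.16 and DESeq2 1.42.0. The calling code was tested on simulated data. PCR duplicates are removed by UMIs, and the intervals cover counting error of 1 tumour only.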

Additional observations from a re-analysis of the deposited data

How the results depend on the processing

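No named gene, and no list median past 0.25 in size, changed sign under the alternatives that gave a value: 427 values of named genes lay within the counting interval and 34 outside it with the same sign. After thinning each cell to 3000 UMIs, 27 named genes had a sum of 0 in one population and give no value. TMM scaling, chosen after seeing the data, raised all log2 folds by 0.03 to 0.11 and DESeq2 size factors by 0.14 to 0.15. Counts depend more on the setting. Against Pax6/Lingo2 cells, 133 genes were higher and 210 lower with no filter on low counts, 9 and 69 after thinning, and 16 and 62 on log2(CPM + 1). Against epithelial cells, 392 were higher with no filter, and 119 were higher and 731 lower after thinning. Against fibroblast cells, 25 were higher with DESeq2 size factors, 100 with no filter and 145 against fibroblast cells with 0 Hmga2 UMIs, and 480 were lower after thinning. Thinning leaves fewer genes with 50 UMIs; the other causes were not tested.

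The share of Cst6/Crabp2 cells in tumour 1 was 0.172% at 1 or more marker UMIs and 0% after thinning. In tumour 2 it was 4.20% at 1 or more, 1.78% at 4 or more, 1.83% at 0 Dcn UMIs, 3.87% at up to 3 Dcn UMIs and 2.22% after thinning. In tumour 3 it was 0.229% at 1 or more, 0% at 4 or more and 0% after thinning. Leaving out the Scrublet doublets kept every share within its interval. No paired analysis was possible because only tumour 2 holds at least 20 Cst6/Crabp2 cells; for the same reason the fits that leave out a tumour, the fit with no replicate block and the DESeq2 test were not run. Depth limits genes with few UMIs: at 1 UMI in 179 cells the interval of a log2 fold spans several units.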

Other observations

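The 4 Cst6/Crabp2 cells of tumours 1 and 3 are few. The 3 cells of tumour 1 had 2, 9 and 8 Crabp2 UMIs and no Cst6 or Esm1, and 24, 25 and 25 Krt18 UMIs. Their Npy counts were 5, 13 and 264 UMIs, and only the second held Col1a1, with 79 UMIs. The cell of tumour 3 had 2 Cst6 UMIs, 29 Krt18 UMIs and no Col1a1. Over all kept cells, Crabp2 was at 6.46, 113 and 3.25 CPM in tumours 1, 2 and 3, and Cst6 at 0.760, 29.5 and 1.85 CPM, so both markers were highest in tumour 2 whatever the cell.

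In the authors' deposited table, which covers all cells of the 19 clusters, clusters 6 and 10 were among the 3 highest for Cst6, Crabp2, Esm1, Pax6 and Lingo2. Cst6 had its highest log2 fold change in cluster 6 (3.46), then in clusters 16 (2.17) and 10 (1.53), and Crabp2 in cluster 6 (3.2), then 10 (1.94) and 16 (1.54), in the authors' deposited table. Esm1 led in cluster 18 (3.40), then 6 (3.24) and 10 (2.19). Pax6 and Lingo2 were also highest in cluster 6 (3.63 and 3.90) and then in cluster 10 (2.62 and 2.21) in the authors' deposited table. Cluster 16, high for Cst6 and Crabp2, was at -2.64 for Pax6 and -2.59 for Lingo2 in the authors' deposited table. On 2 other genes of the rule it went against the rule, with 1.94 for Slc14a1 and -1.72 for Hmga2. No cluster was matched to the Cst6/Crabp2 cells.

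Within the Cst6/Crabp2 cells of tumour 2, 43 cells held Npy, 3 held Cck and 0 held both. With Npy in 24.0% of the cells and Cck in only 3, the lack of a shared cell is not read as a result. Rgs2, a regulator of G protein signalling, had 1 UMI in the 22 cells that were high for the chromosome 15 run (2.89 CPM), against 76.0 CPM in the other 157. Inhba, a subunit of activin A, was at 26.0 CPM in the 22 cells, against 121 in the other 157. These values were chosen after they were seen and have no test.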
